A study of Homo sapiens with 4 samples.

Results

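This report describes the peaks of TBX3 at 8 genes that encode ion and solute transporters of the melanosome or related organelles: SLC45A2, OCA2, SLC24A5, SLC24A4, TPCN2, MCOLN3, TRPM1 and ATP7A. A peak belonged to a gene when the deposited annotation named that gene as the nearest, at any distance. The genes held 32 of the 32479 peaks of replicate 1 and 53 of the 40494 peaks of replicate 2. The assay was ChIP-seq, the sequencing of DNA pulled down with a protein from cross-linked chromatin, in 501mel, an established human melanoma cell line grown in culture. The 2 ChIP samples were precipitated with an anti-HA antibody (clone 12CA5) against HA-tagged TBX3 (TBX3-3xHA), a T-box transcription factor. Sheared chromatin kept as input makes up the other 2 samples, for which no values are used here. The antibody sees the tagged protein and not TBX3 made without the tag, and the labels give no treatment and no way in which the tagged gene was brought into the cells. Nothing in the labels says whether the replicates came from separate cultures, so agreement between them may be technical. A peak was known by its summit base, and its deposited score had no stated scale, so scores were read as percentiles within their own list, where a higher percentile is a higher score.

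Melanosomes are lysosome-related organelles in which tyrosinase starts melanin synthesis. Tyrosinase needs copper and works poorly at acid pH, so pumps, exchangers and channels of the melanosome membrane set how much pigment is made. SLC45A2 and OCA2 are known to raise the pH of the melanosome, SLC24A5 exchanges calcium and sodium, TPCN2 and MCOLN3 are cation channels of endosomes and lysosomes, and ATP7A pumps copper that tyrosinase uses. Loss of OCA2, SLC45A2 or SLC24A5 causes oculocutaneous albinism. TRPM1 is a cation channel whose gene is a known target of MITF, the master regulator of melanocytes, and MITF reads E-boxes with the core letters CATGTG or CACGTG.

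Promoter sequences were taken from RefSeq (GRCh38.p14) and matched 7 of the 8 genes, with 8 windows in all because TRPM1 had 2. SLC45A2 is the gene outside this match, so its promoter sequence was not analysed here and is in none of the motif counts. Only the 250 bases upstream of each start were read. Of the windows matched, those of SLC24A5, TRPM1 and ATP7A are shown because summits lay in or beside them. Each is printed 5′ to 3′ on the strand of the gene, and the capitals mark matches to any of the motifs searched on both strands.

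SLC24A5, chr15:48120740-48120989, plus strand: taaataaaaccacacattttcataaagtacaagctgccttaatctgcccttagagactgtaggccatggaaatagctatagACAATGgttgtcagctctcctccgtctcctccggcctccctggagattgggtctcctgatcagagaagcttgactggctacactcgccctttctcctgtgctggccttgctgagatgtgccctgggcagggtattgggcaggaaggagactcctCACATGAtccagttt

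TRPM1, chr15:31101726-31101975, minus strand, the start nearest to the peaks: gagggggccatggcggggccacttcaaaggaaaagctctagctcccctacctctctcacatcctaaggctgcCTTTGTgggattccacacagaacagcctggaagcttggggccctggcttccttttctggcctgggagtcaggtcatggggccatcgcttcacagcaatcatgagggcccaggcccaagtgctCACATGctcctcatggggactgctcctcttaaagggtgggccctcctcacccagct

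ATP7A, chrX:77910443-77910692, plus strand: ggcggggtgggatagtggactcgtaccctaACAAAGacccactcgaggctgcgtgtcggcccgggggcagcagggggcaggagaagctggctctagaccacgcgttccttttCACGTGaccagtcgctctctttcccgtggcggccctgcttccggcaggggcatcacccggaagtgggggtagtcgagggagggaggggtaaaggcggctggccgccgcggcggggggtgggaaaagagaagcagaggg

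The motifs were the T-box site AGGTGTGA and its core GGTGTG, the E-boxes CATGTG and CACGTG, the longer M-box core TCATGTG, which contains CATGTG, and the SOX sites ACAAAG and ACAATG. In the SLC24A5 window, the capitals near the 3′ end are the reverse complement of TCATGTG, 15 to 9 bases upstream of the RefSeq start. The replicate 2 summit lay 1 bp past the first base of this match, inside it, and the replicate 1 summit lay 46 bp past it. In the TRPM1 window, a reverse complement of CATGTG lay 56 to 51 bases upstream of the start, and both summits were upstream of the window, 129 bp from its edge in replicate 1 and 103 bp in replicate 2. The ATP7A window held CACGTG, 138 to 133 bases upstream of the start, and its only peak was 96 bp upstream of the window. Neither T-box motif was found in any of the 8 windows, while AGGTGTGA or its reverse complement was present in 0.786% of all 35116 windows of this length and GGTGTG in 14.2%. CATGTG was present in 4 of the 8 windows, those of OCA2, SLC24A5 and TRPM1 (both), against 9.42% of all windows. In 2 of these 4, no summit was near the match. The OCA2 match lay 20976 bp (replicate 1) and 13351 bp (replicate 2) from the summits nearest to the start. At the TRPM1 start at 31161160, these distances were 25425 bp and 25431 bp. CACGTG was present in 1 (6.34% of all), TCATGTG in 1 (2.52%), ACAAAG in 3 (13.7%) and ACAATG in 1 (9.29%). A match describes letters only and says nothing of a bound factor. Of the summits nearest to these starts, only that of SLC24A5 in replicate 2 lay inside a window. The sequence under the other summits was not read, so the lack of T-box letters in the windows does not show their absence at the peaks.

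Of the 8 genes, 7 had peaks in replicate 1 and 8 in replicate 2, where 34.1% and 38.4% of the 19970 protein-coding genes in the RefSeq table had any. Summits of the 2 lists that were each other's nearest and at most 200 bp apart were taken as a shared region. There were 27 shared regions at 7 of the genes, and 28.6% of protein-coding genes had at least 1. A shared region lay within 10 kb of the transcription start site (TSS) at 6 genes (75%, 95% Wilson interval 40.9% to 92.9%), namely SLC45A2, SLC24A5, SLC24A4, TPCN2, MCOLN3 and TRPM1. The share over all protein-coding genes was 10.1%. It was 29.7% over the 6816 genes that were nearest to any replicate 1 peak, a set that holds 7 of the 8 genes (all but ATP7A). OCA2 and ATP7A were the 2 genes without one. Within 1 kb of the TSS, 3 genes had a shared region, SLC45A2, SLC24A5 and TRPM1, against 2.99% of all genes, and the same 3 had one annotated as promoter, against 2.05%. The genes are known pigment genes and were chosen with earlier results of these data in view, so these counts carry no test.

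**Figure D1:**
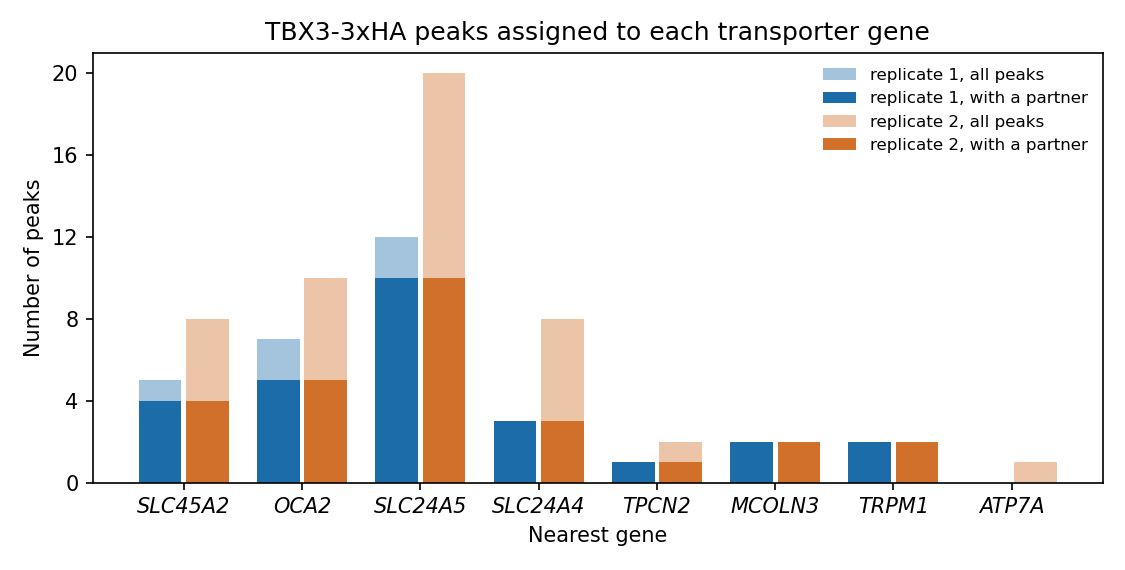
Number of peaks whose nearest gene is each of the 8 transporter genes (x axis), in replicate 1 and replicate 2; the dark part of a bar counts peaks with a partner within 200 bp in the other list. SLC24A5 has the most, 12 in replicate 1 and 20 in replicate 2, of which 10 are shared, while ATP7A has 0 and 1.

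The 2 lists recurred unequally at these genes. Of the 32 replicate 1 peaks, 27 had a partner (84.4%, Wilson interval 68.2% to 93.1%), against 69.9% in the whole list. Of the 53 replicate 2 peaks, the same 27 regions made up 50.9% (37.9% to 63.9%), against 56.1% in the whole list. The intervals cover counting error only and both include the share of the whole list. The 5 peaks found in replicate 1 alone had scores of 3.91 to 11.6 and no percentile above 46.6. Their median percentile was 34.5, against 20.8 for all replicate 1 peaks without a partner. Among the 26 found in replicate 2 alone, scores ran from 2.06 to 23.6, and 5 were at or above the 50th percentile. Their median percentile was 25.9, near the 26.6 of all replicate 2 peaks without a partner. Peaks with a partner had a median percentile of 74.4 in replicate 1 and 80.0 in replicate 2, where all peaks with a partner had 63.6 and 70.5. The largest separation within a pair was 121 bp, at SLC24A5, and the nearest unpaired peak lay 694 bp from a summit of the other list, so the 200 bp limit divided no close cases. The median separation was 18 bp, against 28 bp over all 22702 shared regions.

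SLC45A2, a proton-coupled carrier, spans 33944623 to 33984693 on chromosome 5 and had a pair of strong sites close to its start. At the promoter, summits at 33984855 in replicate 1 and 33984798 in replicate 2 lay 180 bp and 123 bp upstream of the TSS, with scores of 55.4 and 116.5 (percentiles 86.7 and 93.0). In intron 2 of 5, summits at 33982129 and 33982107 lay 2546 bp and 2568 bp downstream, with scores of 63.4 and 96.8 (percentiles 88.6 and 91.0). The order of the 2 sites differed between the lists, since the intronic one ranked higher in replicate 1 (rank 3689 against 4323) and the promoter one in replicate 2 (2844 against 3651). The same intron held a weaker shared region 8205 bp from the TSS, with percentiles of 34.5 and 41.0. A further one at 3623 bp, in an L2a repeat, was the weakest of the 27, with percentiles of 2.69 and 19.4. Replicate 2 alone added 4 intronic peaks, the highest of them with a score of 14.4, 1737 bp from the TSS.

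SLC24A5, the potassium-dependent sodium-calcium exchanger, spans 48120990 to 48142672 on chromosome 15 and had the most peaks. It had 12 peaks in replicate 1 and 20 in replicate 2, and 133 (0.666%) and 64 (0.32%) of the protein-coding genes, SLC24A5 included, had at least as many. At least as many as its 10 shared regions were found at 91 genes (0.456%). These regions made up 37.0% of all those at the 8 genes. The counts per gene took no account of the length of sequence to which each gene is the nearest. At the promoter, whose letters are given above, the summits at 48121021 and 48120976 lay 49 bp and 4 bp downstream of the deposited TSS, which is 18 bp from the RefSeq start. The score there was 16.6 in replicate 1 and 44.2 in replicate 2, a percentile of 58.3 and 79.6, so the promoter was far from the strongest site of the gene. A second region in exon 2 of 9, with summits at 48121938 and 48121925 (966 bp and 953 bp from the TSS), had scores of 29.0 and 33.2 and percentiles of 74.4 and 73.7. It ranked above the promoter in replicate 1 and below it in replicate 2.

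The other 8 shared regions at SLC24A5 were all intergenic and more than 10 kb upstream. The strongest, at 48006232 and 48006245, was 114740 bp and 114727 bp upstream, with scores of 126.8 and 207.6 (percentiles 95.8 and 97.1). The next, at 48040389 and 48040381, was 80583 bp upstream in replicate 1, with scores of 86.9 and 94.5 (percentiles 92.4 and 90.7). Another strong region, 129821 bp upstream, had percentiles of 82.6 and 84.2. Nearer the gene, the regions 17228 bp and 11617 bp upstream had replicate 1 percentiles of 73.6 and 55.4 and replicate 2 percentiles of 80.0 and 67.3. The pair of regions 31136 bp and 30197 bp upstream was weaker, at 60.6 and 46.6 in replicate 1 and 59.8 and 41.0 in replicate 2. The farthest, at 133296 bp, had percentiles of 46.6 and 25.1. The summits assigned to SLC24A5 covered 134262 bp in replicate 1, with a median gap of 6210 bp between neighbours, against 24524.5 bp in the whole list. In replicate 2 they covered 135180 bp with a median gap of 2899 bp, against 21010 bp. Short gaps follow from so many peaks in a span of this size, so they are no result separate from the peak count. A nearest-gene assignment does not show that a site this far away acts on SLC24A5.

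**Figure D2:**
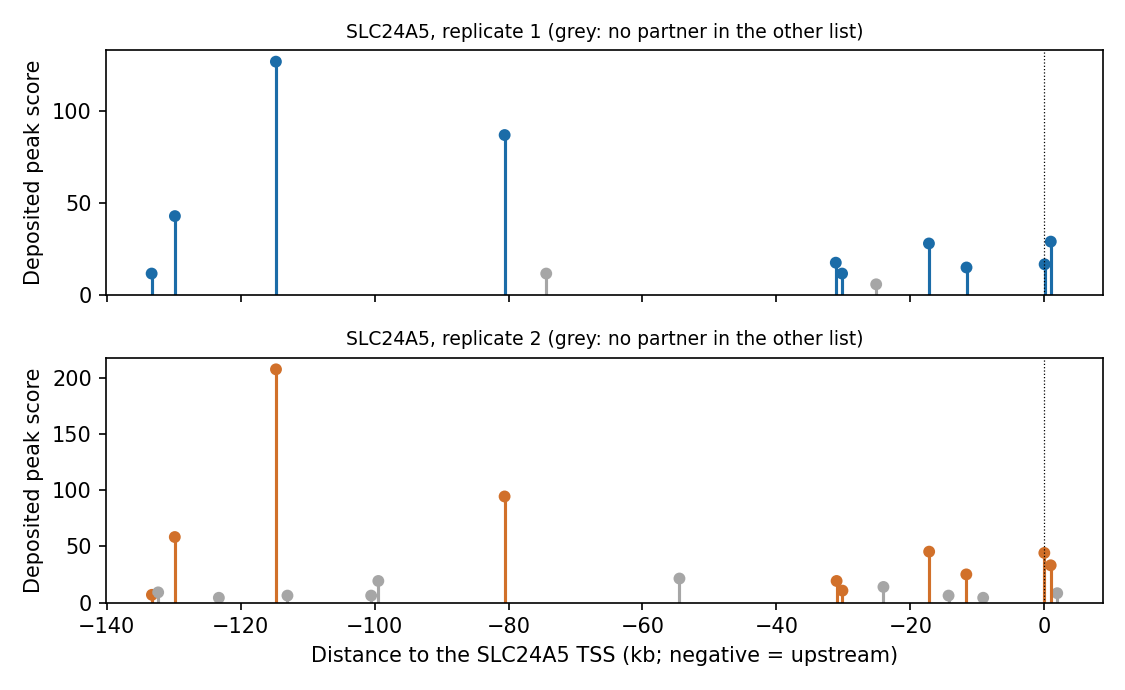
Deposited peak score (y axis) of every peak assigned to SLC24A5 by its distance to the TSS in kb (x axis, negative is upstream), replicate 1 above and replicate 2 below; each line is 1 peak and grey ones have no partner. The highest score in each list is at the peak 114740 bp upstream in replicate 1 (126.8 and 207.6), and the 10 peaks of replicate 2 without a partner score at most 21.4.

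SLC24A4, the paralog of SLC24A5 whose gene is known for an association with hair colour, spans 92322581 to 92501481 on chromosome 14. All 3 of its shared regions were intergenic and upstream. The strongest had summits at 92313866 and 92313823, 8715 bp and 8758 bp upstream, with scores of 31.0 and 81.1 (percentiles 76.0 and 88.9). The others were 10681 bp upstream, with percentiles of 27.2 and 57.4, and 24193 bp upstream, with 53.4 and 74.1. Replicate 2 had 5 more peaks, and none of them scored above 8.30. No shared region lay in the gene span itself. Intron 3 of 17 held those replicate 2 peaks at 92330041 and 92340422, with scores of 4.94 and 8.03. In the same intron, a replicate 1 peak with a score of 2.78 was assigned to RIN3.

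OCA2, a membrane protein needed for chloride transport and a high pH in the melanosome, spans 27719008 to 28099315 on chromosome 15. Neither list had a peak within 10 kb of its TSS. Its 5 shared regions fell on both sides of the start and far from it. Upstream, 2 lay in introns of the neighbouring gene HERC2. The nearer one had summits at 28120444 and 28120450, in intron 86 of 92 of HERC2 and 21132 bp and 21138 bp upstream of OCA2, with scores of 39.3 and 67.5 (percentiles 80.9 and 86.5). Intron 86 of HERC2 is known from other work to hold an enhancer of OCA2. The farther one had summits at 28152088 and 28152151, in intron 70 of 92 within an L1MC5 repeat, 52776 bp upstream in replicate 1, with scores of 106.9 and 153.3 (percentiles 94.4 and 95.3).

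Within the OCA2 gene, the strongest region had summits at 27849151 and 27849169 in intron 22 of 23, 250161 bp and 250143 bp downstream of the TSS. Its scores were 63.3 and 211.1 (percentiles 88.6 and 97.2), so the highest replicate 2 score of the gene was here while the highest replicate 1 score was in HERC2. A region in intron 18 of 23, within an LTR7C element, had percentiles of 77.4 and 81.7. The region farthest downstream, 361401 bp from the TSS in an L1ME3A repeat, had percentiles of 34.5 and 35.1. It was deposited as intergenic, although it lies inside the span of OCA2 in the RefSeq table. In replicate 2 alone a weak peak in intron 1 of 23 (score 4.90) was the nearest to the TSS, at 13195 bp.

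TPCN2, the melanosomal cation channel, spans 69048932 to 69090597 on chromosome 11 and had 1 shared region. Summits at 69056262 and 69056271 lay in intron 4 of 24, 7380 bp and 7389 bp from the TSS, with scores of 43.8 and 118.4 (percentiles 82.9 and 93.2). Replicate 2 had a further peak in intron 1 of 24, 3731 bp from the TSS, with a score of 20.2 (percentile 61.7) and no partner.

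MCOLN3, the mucolipin channel that is mutated in a mouse with a pigment defect, spans 85018082 to 85048500 on chromosome 1. Both of its shared regions were in repeats and of middling or low score. One was intergenic in a THE1D element, with summits at 85054904 and 85054920, 6364 bp and 6380 bp upstream, and scores of 7.82 and 15.6 (percentiles 31.1 and 53.6). The other lay in intron 7 of 12 in a MIR element, 21107 bp from the TSS, with scores of 7.82 and 22.1 (percentiles 31.1 and 63.6). The percentiles of MCOLN3 were thus lower in replicate 1 than in replicate 2 at both sites, by 22.5 and 32.6 points. A replicate 2 peak in intron 12 of 12 of MCOLN3, with a score of 3.11 and no partner, was assigned to MCOLN2.

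TRPM1 spans 31001065 to 31161160 on chromosome 15 and carried the highest-scoring peak of all 8 genes in each list. Its summits at 31102104 and 31102078 lay 378 bp and 352 bp upstream of an internal start site, next to the window printed above, with scores of 174.4 and 250.1 (percentiles 97.7 and 97.9). The other TRPM1 region, at 31135743 and 31135737, was in intron 1 of 26 of a longer transcript, within an MSTB1 element, with scores of 54.3 and 73.3 (percentiles 86.5 and 87.6). No peak without a partner was assigned to TRPM1. MIR211 lies inside TRPM1, and replicate 1 had a weak peak (score 4.50, percentile 10.7) at 31068057 in exon 4 of 27 of TRPM1, which the deposited annotation gave to MIR211. It had no partner in replicate 2.

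ATP7A, the copper pump, spans 77910693 to 78050395 on chromosome X. It had no peak in replicate 1 and 1 in replicate 2, at 77910347 in the promoter, 309 bp upstream of the deposited TSS. Its score of 2.06 was among the lowest in that list (percentile 0.0395). The nearest-gene rule left out a stronger site within the gene: summits at 78024481 and 78024544 lay in intron 14 of 22 of ATP7A, in an L1PA15-16 repeat, and were assigned to PGAM4. Their scores were 49.7 and 98.5 (percentiles 85.1 and 91.2). With regions given to a gene when they lay in its span or within 10 kb of it, all 8 genes had a shared region, against 28.6% of protein-coding genes. In the span alone, 7 did, all but SLC24A4, against 20.9%. The 8 genes are longer than most, with a median span of 90684.5 bp against 24190 bp, and the part of length in this count was not tested.

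**Figure D3:**
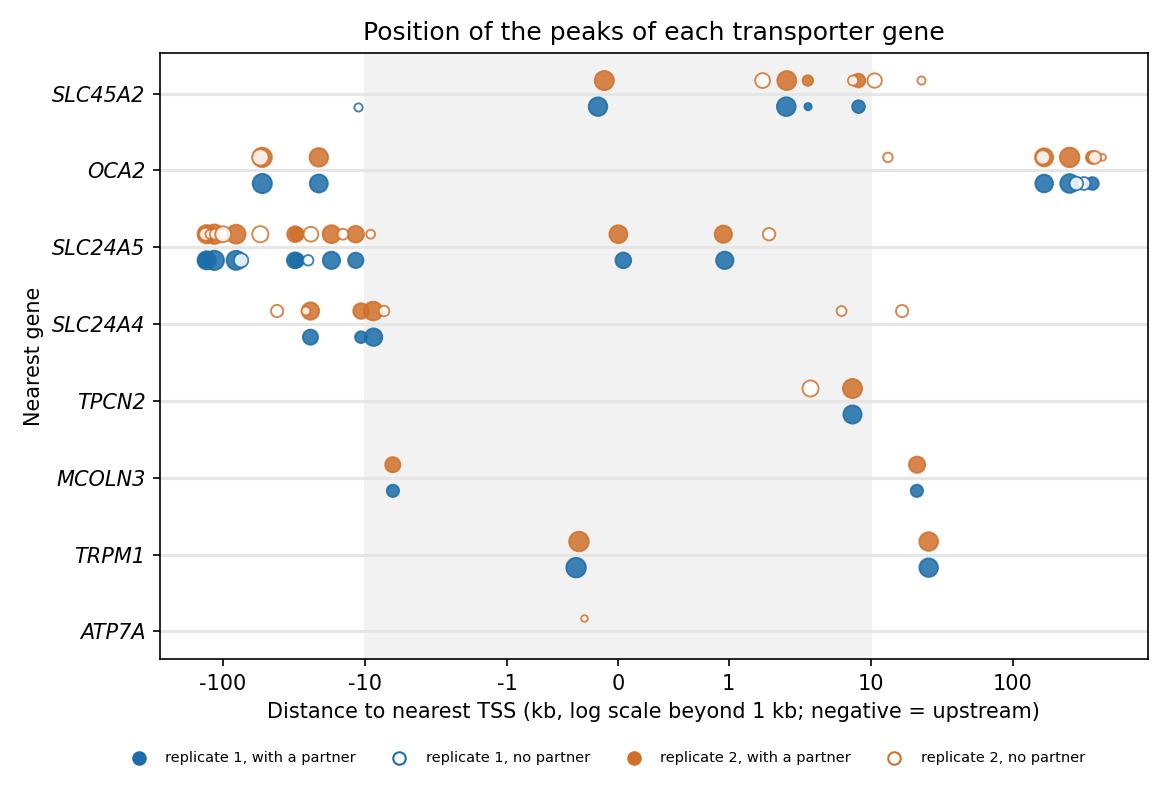
Distance of every peak to the nearest TSS in kb (x axis, log scale beyond 1 kb, negative is upstream) for each transporter gene (y axis); replicate 1 is blue and replicate 2 orange, filled points have a partner, larger points have a higher score percentile, and the grey band spans 10 kb on either side. SLC45A2, SLC24A5 and TRPM1 have filled points within 1 kb, and OCA2 has none inside the band.

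Placed side by side, the genes held 10 shared regions within 10 kb of a TSS, 37.0% of their 27, where 16.7% of all shared regions lay that near. Annotated promoters held 3 of the 27 (11.1%, against 2.52% of all), introns 10 (37.0%, against 39.7%), an exon 1 (3.70%, against 1.00%) and intergenic sequence 13 (48.1%, against 53.2%). Repeats, satellites included, held 8 (29.6%, against 41.7%). No peak of these genes lay in a satellite repeat, a class that held 15.4% of the replicate 1 list and 14.1% of the replicate 2 list. The lower share in repeats is thus not separate from the absence of satellites. Shares in repeats without satellites were not computed. Regions above the 90th percentile in both lists numbered 4 of 27 (14.8%, against 12.4% of all shared regions): the TRPM1 promoter, 2 SLC24A5 regions far upstream and the OCA2 region in HERC2 intron 70. The TRPM1 region was the only promoter among these 4, and the share of such regions was near that of the whole series.

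Percentiles were higher in replicate 2 at 22 of the 27 regions (81.5%, against 67.0% of all shared regions), with a median difference of 5.65 points, against 3.63. All 5 regions with a lower percentile in replicate 2 were at SLC24A5. With 2 samples of 1 condition, no test of a difference between replicates was possible, and the read depth of the libraries is unknown.

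**Figure D4:**
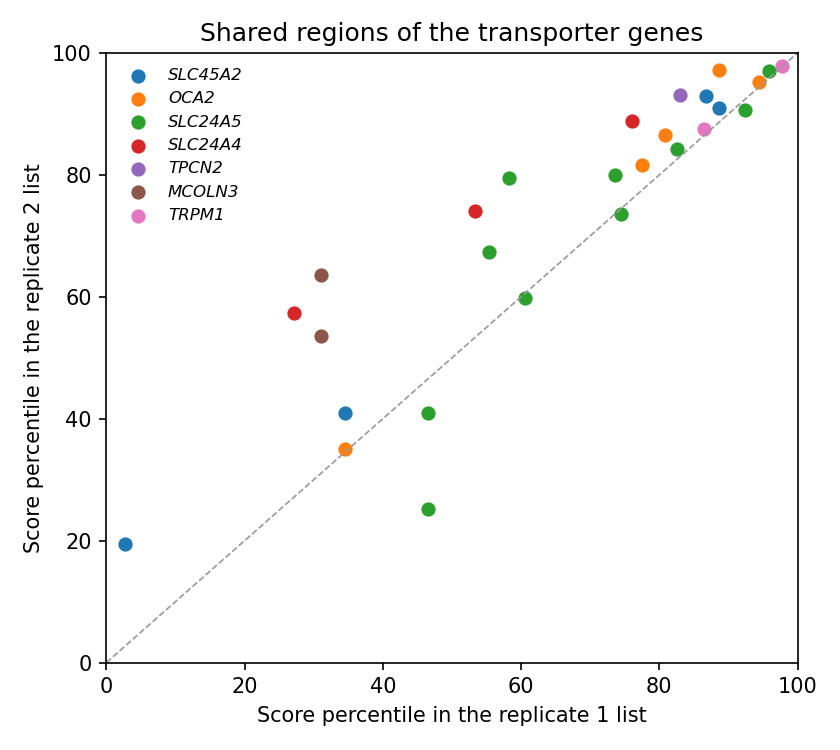
Score percentile of each of the 27 shared regions in the replicate 1 list (x axis) and the replicate 2 list (y axis), coloured by gene; the dashed line marks equal percentiles. Points above the line number 22, and the 5 below it belong to SLC24A5.

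Paralogs and other transport genes were set beside the members. Of 18 paralogs with main roles outside the melanosome (the other SLC45A, SLC24A, SLC8B1, TPCN, TRPM, ATP7 and MCOLN genes), 1 had such a region near its start, at 10 kb or less (5.56%, Wilson interval 0.988% to 25.8%), close to the 10.1% of all genes. It was TRPM7, a channel with a kinase domain, at the promoter 90 bp upstream in replicate 1, with scores of 4.24 and 17.0 (percentiles 8.77 and 56.0). At any distance 6 of the 18 had a shared region, near the 28.6% of all protein-coding genes, and 9 had a peak in either list, where 41.6% of all genes did. Among 14 other genes of organelle acidification, chloride, copper and solute transport, 2 had a shared region within 10 kb (14.3%, 4.01% to 39.9%). At any distance 4 of the 14 had one, near the 28.6% of all protein-coding genes. The list held ATP6V0A1, ATP6V0D1, ATP6V1A, ATP6V1B2, ATP6AP1, ATP6AP2, CLCN7, OSTM1, SLC31A1, ATOX1, TMEM175, MFSD12, SLC36A1 and CTNS. Unlike the paralogs, it was not limited to genes with main roles outside the melanosome. At SLC31A1 on chromosome 9, the copper importer of the plasma membrane, the shared region (113228239 and 113228302) was 6711 bp from the TSS, within intron 1 of 4, with scores of 108.5 and 235.1 (percentiles 94.5 and 97.7). ATP6V1B2, a subunit of the proton pump, had summits at 20198721 and 20198737 in intron 1 of 13, 1528 bp from the TSS, with percentiles of 67.9 and 69.3. The difference between these lists and the 8 genes was not tested.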

How the data were processed

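Peak lists of the 2 TBX3-3xHA ChIP samples were analysed. Each deposited list holds the peak summits of 1 sample, annotated by annotatePeaks.pl (HOMER) on hg38, per the file headers. The deposited peak score has no stated scale. The submitters' processing notes name FastQC 0.11.7, cutadapt 2.8, Bowtie2 2.3.5, MACS2 2.1.2 and SAMtools 1.9 without their roles. The peak threshold and the control used are not given in the sources used here, and read depth is unknown. The distances to the TSS and the nearest genes, in bp and by name, are as deposited.

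Pairs of mutually nearest summits within 200 bp were shared regions, with gene and distance from replicate 1. Percentiles rank scores within a list, with ties at their mean. Of 12468 gene identifiers, 12420 matched the RefSeq table of GRCh38.p14 (99.6%). All 8 members are described, each with its highest-scoring peaks and shared regions within 10 kb, and comparison genes only with a shared region within 10 kb. Members, lists and motifs were chosen with earlier results of these data known, so no p-values are given. Pairing was tested on simulated data. Python 3.11.15, pandas 2.3.3, numpy 2.4.6, scipy 1.17.1 and matplotlib 3.10.9 were used. Alternatives changed the pairing distance, the distance to the TSS, the scores and repeats used, the replicates needed and the assignment to genes.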

Additional observations from a re-analysis of the deposited data

How the results depend on the processing

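Alternatives gave 60 values for the counts and shares over gene lists, of which 31 stayed close to the main ones and 29 moved. A count moved beyond 1.5 times, a share outside its Wilson interval and a median percentile by more than the SD of the 2 replicate medians. For shared regions per gene, 26 of 88 values moved. With replicate 2 alone, all its peaks were counted, paired or not, in place of shared regions. Within 10 kb, SLC24A5 then went from 2 to 4, SLC24A4 from 1 to 3, TPCN2 from 1 to 2 and ATP7A from 0 to 1. With scores at or above the median, SLC45A2 went from 4 to 2 and MCOLN3 from 1 to 0. The causes were not tested, beyond each setting keeping fewer or more regions. Shares of all protein-coding genes follow in brackets. The 6 genes with a shared region within 10 kb became 0 with summits at the same base (0.17%) and 3 within 1 kb (2.99%). They were 5 with scores at or above the median (7.21%) and 7 within 50 kb (22.9%) or at any distance (28.6%). In the gene span or within 10 kb of it they were 8 (28.6%). The other pairing distances and leaving out satellites kept 6 (8.09% to 10.6%). Counting peaks of replicate 1 alone, paired or not, gave 6 genes (13.4%). Those of replicate 2 alone gave 7 (15.5%), with ATP7A added by its peak of score 2.06. Of the 18 paralogs, the count of 1 became 0 when pairing within 50 bp (8.09%), at the same base or with scores at or above the median (7.21%), 4 within 50 kb (22.9%), and 6 at any distance or by gene span (28.6% each); either list alone gave 1. Of the 14 other transport genes, the count of 2 became 1 within 50 bp (8.09%). It became 0 at the same base (0.17%) or within 1 kb (2.99%), 4 at any distance and 5 by gene span (28.6% each). Either replicate 1 (13.4%) or replicate 2 (15.5%) alone gave 3.

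The number of peaks at the 8 genes, 32 and 53, became 19 and 28 with scores at or above the median, 10 and 18 within 10 kb, 21 and 35 within 50 kb, and 20 and 31 by gene span. The share with a partner became 65.6% in replicate 1 when pairing within 50 bp (49.9% of the whole list) and 0% in both lists at the same base (0.902% and 0.724%). With scores at or above the median it was 100% in replicate 1 (84.7% of the whole list) and 67.9% in replicate 2 (69.4%). The median percentile, 59.4 and 51.0, became 74.4 and 80.0 for peaks with a partner. Within 10 kb it was 75.2 in replicate 1, against 54.2 for all such peaks, and 52.3 in replicate 2, against 56.0. The 10 peaks of replicate 1 within 10 kb all had a partner, while the 18 of replicate 2 included peaks without one. The medians within 10 kb therefore cover unlike sets of sites and do not show whether the same sites score alike in both lists. No paired analysis was possible because no groups were compared: the ChIP samples are 1 group, and no values of the input samples were used here.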
